A study of Mus musculus with 6 samples.

Results

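The nuclear-encoded subunits of the mitochondrial respiratory chain and of ATP synthase were followed in a mouse lung cancer line, LLC (Lewis lung carcinoma), after targeting of Calr, the gene of the endoplasmic reticulum chaperone calreticulin. Members were taken by gene symbol, as the genes named for subunits of NADH dehydrogenase, succinate dehydrogenase, the cytochrome bc1 complex, cytochrome c oxidase and ATP synthase, with pseudogenes left out and with an average level over all 6 libraries of 10 or more normalised counts. The rule found 77 members among 13199 genes tested and 55291 gene symbols in all. They comprised 36 genes of complex I, 4 of complex II, 9 of complex III, 11 of complex IV and 17 of complex V. Ndufa4 was counted in complex IV, where its protein is found, although it is named for complex I. A further 7 genes matched by symbol but lay below the level of the rule. The member of lowest level, Ndufa3, had a mean of 135 normalised counts, and the gene just outside, Cox7a1, had 5.34.

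The samples were Calr KO cells (n = 3), which received plasmids for Cas9 and a guide RNA against Calr, and control cells (n = 3), labelled WT, which received Cas9 with a control guide. Both were kept in culture for 10 days after transfer of the plasmids, seeded in 3 wells per group without further treatment and collected 48 hours later. As the labels give it, each group was a single population plated in triplicate, so a p-value reflects how wells vary and says nothing of how separately made knockouts would vary. Whether the cells were a clone or a pool is not stated. Total RNA was the input to a SMARTer mRNA-seq kit, and the batch label is the same for every library.

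The respiratory chain passes electrons from NADH, through complex I, or from succinate, through complex II, to ubiquinone, then through complex III and cytochrome c to complex IV, which reduces oxygen. Complexes I, III and IV pump protons across the inner mitochondrial membrane, and complex V uses the returning protons to make ATP. Complex II is built from nuclear genes alone, whereas the other complexes combine nuclear-encoded subunits, translated in the cytosol and imported, with a few core subunits made from the mitochondrial genome. Many promoters of these nuclear genes bind the transcription factors NRF1, GABP (an ETS-family factor) or YY1.

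Calr, the targeted gene, had 4467, 4216 and 4453 normalised counts in the Calr KO libraries, against 10711, 10202 and 11047 in the controls (log2 change -1.28, adjusted p = 7.9e-07), so the targeted transcript fell but remained in every Calr KO library. Each library summed to between 14040692 and 14099985 normalised counts. Over all tested genes, 26 were higher and 11 lower in Calr KO cells at an adjusted p under 0.05. Of 9 lung epithelial markers Krt8 and Krt18 reached a mean of at least 10, while Epcam, Krt19, Nkx2-1, Sftpc and Scgb1a1 were listed at 0; the list summed to 4961 to 5240.2 normalised counts in Calr KO and 4635 to 4932 in control libraries. Macrophage markers summed to 195 to 255 normalised counts in Calr KO and 187 to 232 in control libraries, with Adgre1, C1qa and C1qb at 0. Lymphocyte markers summed to 7.16 to 10.7 normalised counts in Calr KO and 0.967 to 6.22 in control libraries, with Cd3e, Cd4, Ms4a1 and Nkg7 at 0, and endothelial markers to 56.99 to 66.5 normalised counts in Calr KO and 47.6 to 71.6 in control libraries, with Emcn at 0. Fibroblast markers, none of which was at 0, summed to 22731 to 24347 normalised counts in Calr KO and 22027 to 22915 in control libraries. A mean of at least 10 was reached by the macrophage markers Cd68 and Cd14 and the endothelial markers Cdh5, Kdr and Vwf. It was also reached by the fibroblast markers Col1a2, Col3a1, Pdgfra, Dcn and Lum, and by no lymphocyte marker. The part of these markers in the members' values was not tested.

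No respiratory chain subunit gene passed the test between Calr KO and control cells. Of 77 members 0 were higher, where 0.197% of all tested genes were, and 0 were lower, where 0.0833% were, at an adjusted p under 0.05 (limma on log2(value + 1), Benjamini-Hochberg adjustment over all 13199 genes). In either direction 0.28% of all tested genes were called. The smallest adjusted p of a member was 0.277, for Ndufc1. At an unadjusted p under 0.05, 3 members were higher (Ndufc1, Ndufv1 and Ndufb11), where 4.6% of all tested genes were, and 1 was lower (Atp5a1), where 4.28% were. Together these were 5.19% of the members, against 8.88% of all tested genes.

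The intervals of the changes were narrow. The 95% interval of the change lay within 1.5-fold either way for 76 of 77 members, where 74.4% of all tested genes had such an interval. The exception was Ndufab1. Members had a median level of 895 normalised counts and a median SE of 0.060 on the log2 scale, and all tested genes 392 and 0.10. The RNA came from whole wells, so fewer cells that express a gene and less of its RNA per cell cannot be told apart.

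**Figure D1:**
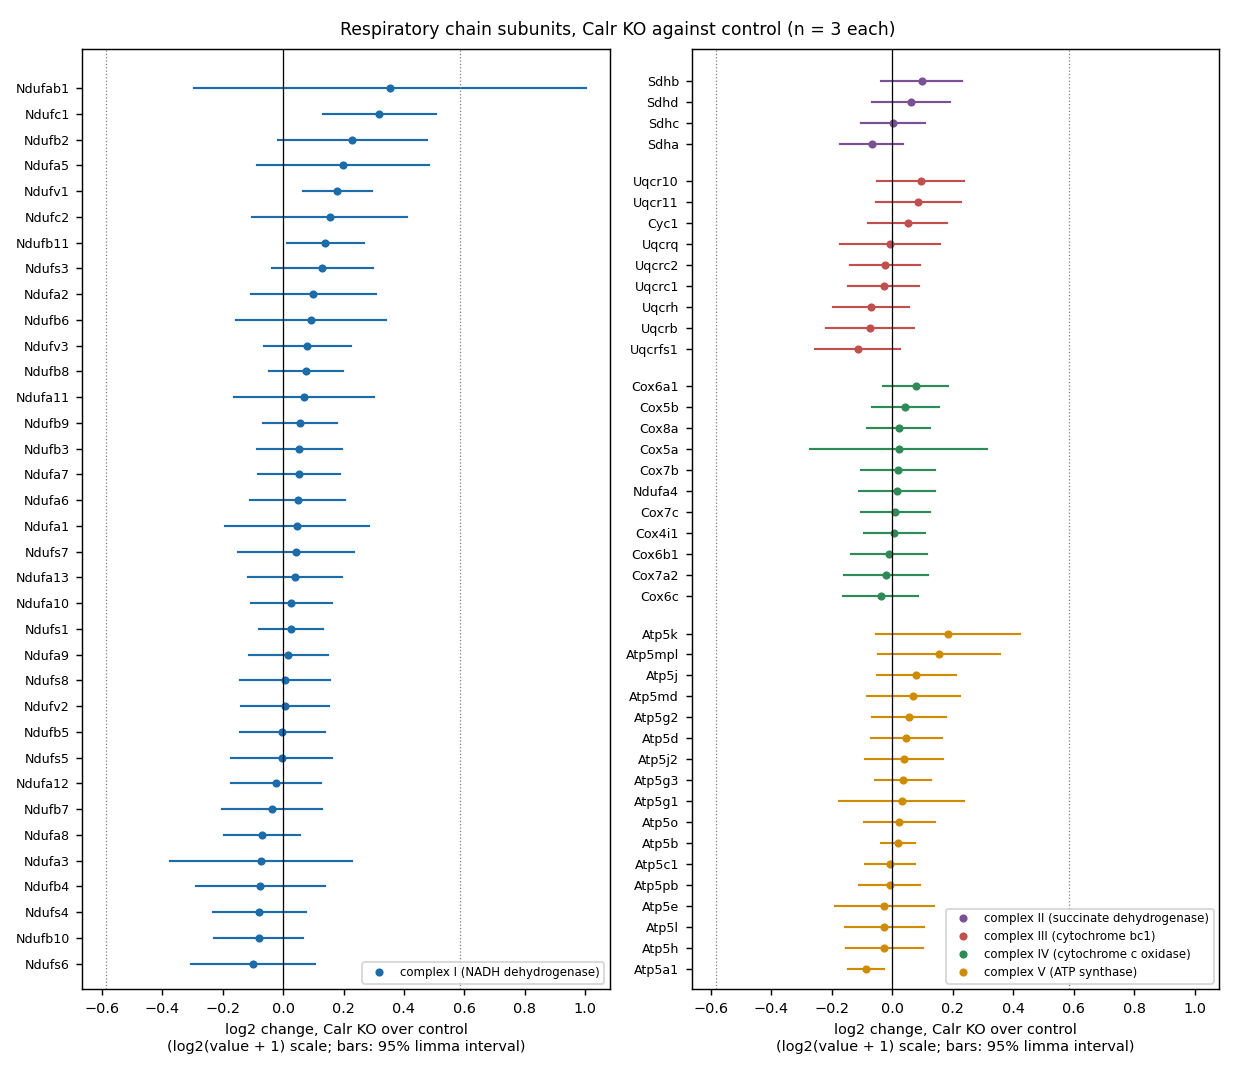
Log2 change in Calr KO over control cells for 76 of the 77 members, each with its 95% limma interval (n = 3 libraries per group); complex I is on the left and complexes II to V on the right, and dotted lines mark 1.5-fold. The changes lie between -0.12 and 0.35, and only the interval of Ndufab1 crosses a dotted line.

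The members as a set sat slightly above 0. Their median log2 change was 0.027, against 0.00036 over all tested genes, and 51 of 77 changes were positive (66.2%, against 50.1%). In 10 members every Calr KO library was above every control (13.0%, against 7.57% of all tested genes), and in 2 members every Calr KO library was below (2.597%, against 7.28%). Scalings moved the positive share of the members and of all tested genes together. With equal upper quartiles 46 members were positive (59.7%, against 46.6%), with equal totals 50 (64.9%, against 49.4%) and with equal medians 50 (64.9%, against 48.6%). After correction of each library for GC content and transcript length 43 were positive (55.8%, against 50.1%).

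Members were shorter than most tested genes, with a median transcript length of 865 bases, against 2905 for all tested genes. Up to 700 bases, the 28 members had a median log2 change of 0.020 and the 468 tested genes 0.021. The members' median was higher than that of tested genes of like length in the other bins. It was 0.041 for 16 members, against 0.021, from 701 to 1000 bases, 0.019 for 13 members, against 0.013, from 1001 to 1500 bases and 0.0063 for 13 members, against 0.0037, from 1501 to 2500 bases. It was 0.027 for 5 members, against -0.0050, from 2501 to 4000 bases and 0.13 for 2 members, against -0.0063, above 4000 bases, the last bins holding few members. With the GC content and length correction the median over all members was 0.016, and the part of length in it was not tested further.

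By complex, the median log2 change was 0.045 in complex I, 0.032 in complex II, -0.025 in complex III, 0.015 in complex IV and 0.031 in complex V. Complex III was the one with a median below 0, and the median of complex IV was -0.0052 after the correction for GC content and length, -0.0060 when Calr KO replicate 3 was dropped and -0.0055 when control replicate 2 was dropped. These medians carry no test, since the members of a complex are not replicates. The mean log2 deviation of the complex I genes from their average over the 6 libraries was 0.042, 0.026 and 0.017 in the Calr KO libraries, against -0.0066, -0.043 and -0.035 in the controls. On this average each Calr KO library lay above each control, but the order rested on 1 gene. Without Ndufab1, left out after its values were seen, the deviation was 0.033, 0.023 and 0.017 in the Calr KO libraries, against 0.022, -0.053 and -0.041 in the controls, and control replicate 1 lay within the Calr KO range. For complex V it was 0.017, 0.013 and 0.019 in the Calr KO libraries, against 0.023, -0.070 and -0.0013 in the controls, and control replicate 1 lay above all Calr KO libraries. In complexes II, III and IV the libraries of both groups overlapped as well.

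The extreme values of the members were unevenly spread over the wells. Control replicate 2 held the lowest value of 31 of the 77 members and control replicate 3 of 20, whereas control replicate 1 held the highest value of 24. Calr KO replicates 1, 2 and 3 held the highest value of 19, 11 and 15 members. The share of all normalised counts taken by the members was 0.887%, 0.875% and 0.884% in the Calr KO libraries, against 0.892%, 0.86% and 0.878% in the controls. The control range thus enclosed all 3 Calr KO libraries.

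**Figure D2:**
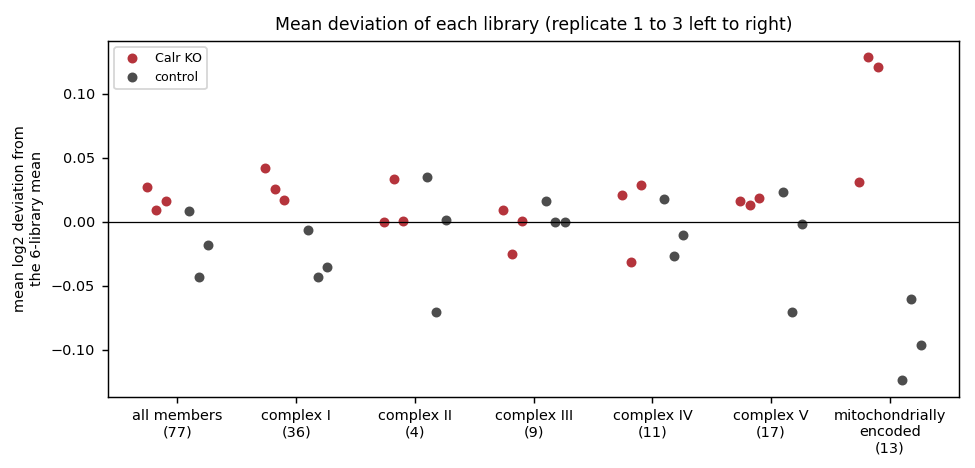
Mean log2 deviation of each library from the 6-library mean, averaged over the genes of each set (number of genes in brackets), with Calr KO libraries left of controls and replicates 1 to 3 from left to right. Groups overlap in complexes II to V and separate for the mitochondrially encoded subunits; the separation for complex I and, by a small margin, for all members is lost without Ndufab1, where control replicate 1 stands at 0.022 and 0.022.

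Levels per kb of transcript differed between the complexes in the same order in both groups. The median level was 775 normalised counts per kb in Calr KO and 773 in control cells for complex I, 985 and 934 for complex II, and 1372 and 1422 for complex III. It was 2632 and 2557 for complex IV, and 2017 and 2020.0 for complex V. Of 33 complex I genes 26 lay below 1000 per kb, and all 11 complex IV genes lay above. The order was I, II, III, V and IV from low to high. Atp5b, the catalytic beta subunit of ATP synthase, had the highest level per length of the members with a level, 13149 ± 294 normalised counts per kb in Calr KO and 12990.5 ± 287 in control cells. Next came Cox6a1, the form of a small cytochrome oxidase subunit found in most tissues, with 4999 ± 36.8 normalised counts per kb in Calr KO and 4746 ± 281 in control cells. Atp5a1, the alpha subunit, had 4274 ± 79.8 normalised counts per kb in Calr KO and 4541 ± 78.7 in control cells. Levels are given for the 68 members whose principal transcripts differ by at most 1.5-fold in length. The sources used here do not say whether the authors' normalisation already allowed for transcript length.

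**Figure D3:**
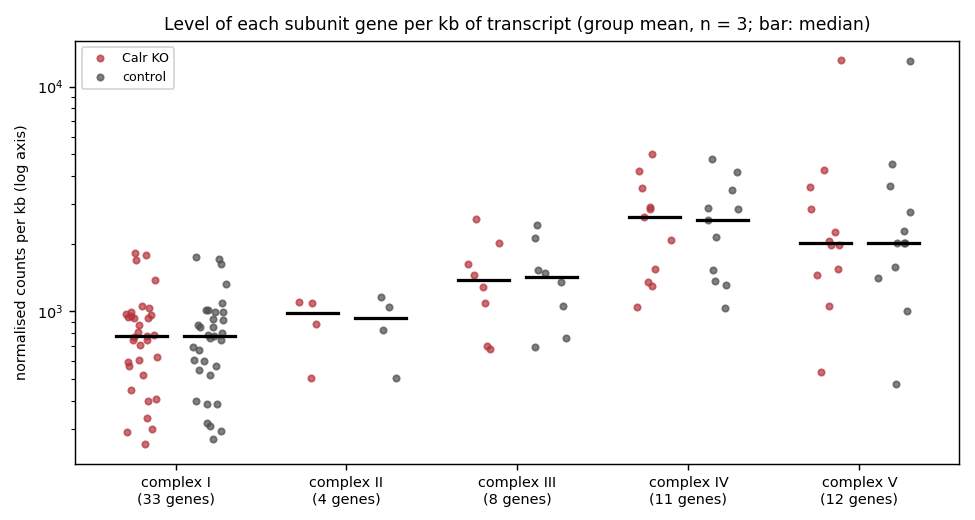
Level of each subunit gene per kb of its principal transcript (group mean of 3 libraries, log axis), by complex, with Calr KO left of control and a bar at the median. Complex I genes sit lowest, with a median near 772 per kb, and complex IV genes highest, with 2594.

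What the members share in sequence was described in their promoters, taken as the 250 bases before and 50 after each RefSeq start on GRCm38.p6. Promoters were found for 64 of the 77 members, 69 in all. Atp5a1, Atp5mpl, Cox4i1, Cox6c, Cyc1, Ndufa2, Ndufb9, Ndufs1, Sdhc, Uqcrb, Uqcrc2 and Uqcrq were among those with no entry. The NRF1 palindrome, searched on both strands with any base allowed at 1 of its positions, was present in 26.1% of the members' promoters, 10.0% of the promoters of all tested genes and 4.60% of all promoters. Its exact form, a subset of these matches, was present in 7.25% of the members' promoters, 2.05% of the promoters of all tested genes and 0.971% of all promoters. The ETS letters CCGGAAG were present in 24.6% of the members' promoters, 17.7% of the promoters of all tested genes and 8.86% of all promoters, on either strand. The YY1 letters AANATGGCG were present in 14.5% of the members' promoters, 5.06% of the promoters of all tested genes and 2.38% of all promoters. At least 1 of the 3 motifs was present in 56.5% of the members' promoters, 28.9% of the promoters of all tested genes and 14.2% of all promoters. The median GC content of the promoters was 58.7% for members, 60.7% for tested genes and 52.7% for all promoters. A match of letters is a description and not a binding site. Matches of different motifs may overlap each other.

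The following upstream stretches, on the minus strand of GRCm38.p6 and 5′ to 3′, end before the annotated start of the gene. Sdha (chr13:74350281-74350490), Sdhd (chr9:50603850-50604099) and Cox6a1 (chr5:115348982-115349208) are shown because they hold NRF1 letters upstream of the start, and Ndufc1 (chr3:51408989-51409205) because it had the smallest p of all members. Capitals mark matches to the NRF1 palindrome with any base allowed at 1 of its positions, on whichever strand they read. In Sdhd the match is followed by the ETS letters of the other strand, also in capitals. Only the first match in Cox6a1 is the exact palindrome, and the matches in Sdha and Sdhd are not. The printed stretch of Ndufc1 holds none of the 3 motifs, but its promoter window as tallied also covers bases after the printed stretch and holds the YY1 letters there. The window of Cox6a1 likewise holds the ETS letters after the printed stretch.
Sdha: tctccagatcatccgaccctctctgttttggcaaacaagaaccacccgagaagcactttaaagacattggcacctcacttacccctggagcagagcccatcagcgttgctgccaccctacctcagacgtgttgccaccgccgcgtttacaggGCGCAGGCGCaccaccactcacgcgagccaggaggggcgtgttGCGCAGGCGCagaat
Sdhd: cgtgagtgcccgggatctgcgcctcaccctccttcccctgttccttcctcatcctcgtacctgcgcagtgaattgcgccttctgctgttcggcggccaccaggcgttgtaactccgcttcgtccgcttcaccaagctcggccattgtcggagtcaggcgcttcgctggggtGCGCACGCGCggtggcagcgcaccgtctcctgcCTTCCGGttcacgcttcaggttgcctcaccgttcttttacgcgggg
Cox6a1: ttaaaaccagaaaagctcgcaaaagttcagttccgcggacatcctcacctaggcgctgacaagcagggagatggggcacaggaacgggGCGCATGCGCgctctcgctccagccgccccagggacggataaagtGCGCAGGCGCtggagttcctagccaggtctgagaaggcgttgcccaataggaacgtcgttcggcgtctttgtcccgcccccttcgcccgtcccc
Ndufc1: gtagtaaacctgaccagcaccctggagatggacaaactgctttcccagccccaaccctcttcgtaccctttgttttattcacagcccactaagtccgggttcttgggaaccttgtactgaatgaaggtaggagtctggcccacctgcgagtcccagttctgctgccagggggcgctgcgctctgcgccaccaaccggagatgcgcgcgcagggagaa

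Complex I, the entry point for electrons from NADH, held the members with the largest changes, none of which passed the test. Of its 36 genes 26 had a positive change, and 7 were higher and 1 lower without overlap (22.2%, against 14.8% of all tested genes in either direction). All 7 core subunits, which form the arm that leads electrons from NADH to the quinone, had positive changes, from 0.0063 to 0.18, with a median of 0.034, and 5 of 7 were positive with equal upper quartiles (where 46.6% of all tested genes were) or with the GC content and length correction (where 50.1% were). The 29 accessory subunits had a median of 0.048, with 19 positive changes.

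Ndufv1, the flavin-bearing core subunit that accepts electrons from NADH, had 1335, 1330.5 and 1262 normalised counts in the Calr KO libraries, against 1139, 1144 and 1184 in the controls. All Calr KO libraries were above all controls, by 1.13-fold (log2 change 0.18, 95% interval 0.064 to 0.30, adjusted p = 0.333). It lies on chromosome 19 (ENSMUSG00000037916.14, positions 4007384 to 4012806, GRCm38). The other core subunits named had smaller changes. Ndufs1, the largest subunit of complex I, had 2082, 2021 and 2084 normalised counts in the Calr KO libraries, against 2075, 2079 and 1922 in the controls (log2 change 0.027, 95% interval -0.080 to 0.13, adjusted p = 0.912), and the groups overlapped. Ndufs3, a core subunit of the same arm, had 625 ± 22.7 normalised counts in Calr KO cells and 572 ± 38.1 in controls without overlap between the groups (log2 change 0.13, 95% interval -0.038 to 0.30, adjusted p = 0.676).

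Ndufc1, a small accessory subunit of the membrane arm, had 435, 433 and 402 normalised counts in the Calr KO libraries, against 344, 354 and 319 in the controls. The groups did not overlap, and the change was the largest of the members without overlap (log2 change 0.32, 95% interval 0.13 to 0.50, adjusted p = 0.277). Ndufc1 lies on chromosome 3 (ENSMUSG00000037152.11, positions 51404677 to 51408988, minus strand, GRCm38), and its upstream sequence is given above. Ndufb11, another membrane arm subunit, had 866, 864 and 838 normalised counts in the Calr KO libraries, against 793, 783 and 756 in the controls (log2 change 0.14, 95% interval 0.012 to 0.27, adjusted p = 0.525). Its controls were all lower than its Calr KO libraries. The membrane arm subunit Ndufb2 had 221 ± 21.4 normalised counts in Calr KO cells and 188 ± 6.54 in controls (log2 change 0.23, 95% interval -0.018 to 0.48, adjusted p = 0.594), again without overlap.

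The remaining accessory genes without overlap were named after their values were seen. Ndufv3 and Ndufb9 were higher in each Calr KO library, with log2 changes of 0.081 and 0.056, and Ndufa8 was lower in each, with -0.070. Their adjusted p-values were 0.77, 0.817 and 0.773. At the low end of the complex, Ndufs6 had 425 ± 18.7 normalised counts in Calr KO cells and 457 ± 43.6 in controls (log2 change -0.10, 95% interval -0.30 to 0.10, adjusted p = 0.801). Ndufb10 had 686 ± 34.9 normalised counts in Calr KO cells and 725 ± 18.5 in controls (log2 change -0.080, 95% interval -0.23 to 0.067, adjusted p = 0.78). The libraries of both groups overlapped in these genes.

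Ndufab1, the mitochondrial acyl carrier protein, which also serves fatty acid and lipoic acid synthesis, was the most variable member. It had 732, 618 and 571 normalised counts in the Calr KO libraries, against 281, 697 and 633 in the controls. Control replicate 1 held less than the other 5 libraries, which overlapped across the groups. The log2 change of 0.35 had a 95% interval of -0.30 to 1.00 (adjusted p = 0.78), and without control replicate 1 the change was -0.060. The positive value therefore came from that library.

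**Figure D4:**
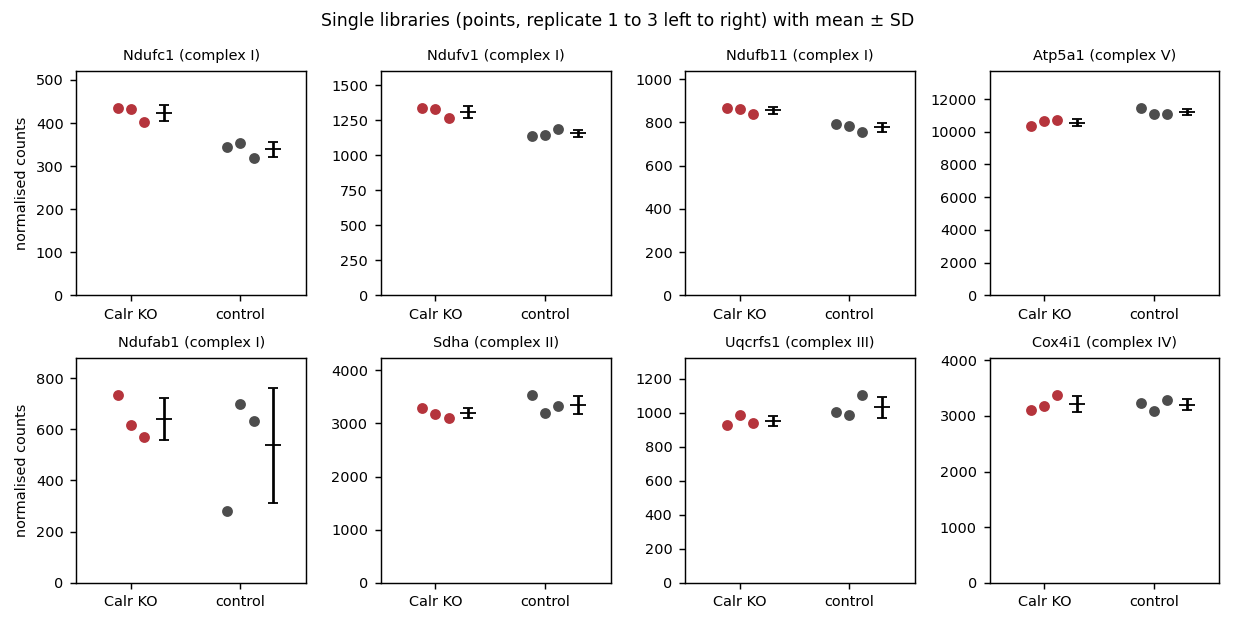
Normalised counts of 8 members in each library (points, replicates 1 to 3 from left to right) with the mean ± SD beside them, Calr KO left of control, axes from 0. Groups do not overlap for Ndufc1, Ndufv1, Ndufb11 and Atp5a1, and control replicate 1 stands apart for Ndufab1 with 281 normalised counts.

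In complex II, the succinate dehydrogenase that also belongs to the citric acid cycle, the 4 genes had small changes of both signs. Sdha, the flavoprotein that oxidises succinate, had 3299.9, 3173 and 3112 normalised counts in the Calr KO libraries, against 3529, 3199.8 and 3328 in the controls (log2 change -0.068, 95% interval -0.17 to 0.035, adjusted p = 0.737). Control replicate 2 lay within the Calr KO range. Sdhb, the iron-sulphur subunit, had 1004 ± 23.5 normalised counts in Calr KO cells and 939 ± 49.2 in controls (log2 change 0.10, 95% interval -0.038 to 0.23, adjusted p = 0.711). The membrane anchor Sdhc had 1605 ± 56.5 normalised counts in Calr KO cells and 1604 ± 10.9 in controls (log2 change 0.00083, 95% interval -0.10 to 0.11, adjusted p = 0.998). The sign of the change of Sdhc depended on the scaling, and it was negative with equal totals, equal upper quartiles, equal medians or the GC content and length correction. Sdhd, the other membrane anchor, had 1343 ± 24.3 normalised counts in Calr KO cells and 1288 ± 77.1 in controls (log2 change 0.062, 95% interval -0.067 to 0.19, adjusted p = 0.802). Sdha and Sdhd hold the inexact NRF1 matches shown above.

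Complex III, which passes electrons from ubiquinol to cytochrome c, had 3 positive changes among 9 genes. Of the 9, 0 were without overlap, where 14.8% of all tested genes were, so a count of 0 does not set them apart. Uqcrfs1, the Rieske iron-sulphur protein, had 929.7, 987 and 939.6 normalised counts in the Calr KO libraries, against 1007, 987 and 1103 in the controls. Calr KO replicate 2 was level with control replicate 2, so the groups met there (log2 change -0.12, 95% interval -0.26 to 0.026, adjusted p = 0.651). Cyc1, the cytochrome c1 subunit and the other catalytic nuclear-encoded subunit, had 1773, 1537 and 1659 normalised counts in the Calr KO libraries, against 1619, 1596 and 1576 in the controls (log2 change 0.050, 95% interval -0.081 to 0.18, adjusted p = 0.856). The Calr KO libraries spread on both sides of the controls. The core proteins Uqcrc1 and Uqcrc2 had log2 changes of -0.029 (adjusted p = 0.912) and -0.025 (adjusted p = 0.93). Among the 5 small subunits the changes ran from -0.074 for Uqcrb to 0.094 for Uqcr10, with Uqcr11 at 0.086.

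Complex IV, cytochrome c oxidase, had the narrowest range of changes of the 5 complexes. Its 11 changes lay between -0.039 and 0.077, and 0 of 11 were without overlap (against 14.8% of all tested genes), a count too small to set them apart. Cox4i1, the regulatory subunit that binds ATP, had 3100.0, 3178 and 3368 normalised counts in the Calr KO libraries, against 3232, 3089.8 and 3278 in the controls (log2 change 0.0064, 95% interval -0.093 to 0.11, adjusted p = 0.982), and its sign was the other with equal upper quartiles. The groups overlapped in all 11 genes. Cox5b, a zinc-binding subunit, had 2277 ± 45.2 normalised counts in Calr KO cells and 2212 ± 115 in controls (log2 change 0.043, 95% interval -0.067 to 0.15, adjusted p = 0.855). Cox6c had 1490.5, 1544 and 1559 normalised counts in the Calr KO libraries, against 1674, 1563 and 1487 in the controls (log2 change -0.039, 95% interval -0.16 to 0.086, adjusted p = 0.883). Cox8a had 1943 ± 39.9 normalised counts in Calr KO cells and 1917 ± 74.3 in controls (log2 change 0.021, 95% interval -0.084 to 0.13, adjusted p = 0.935). These values were as close between the groups as within them. Cox7c had a log2 change of 0.0093, which was negative with equal upper quartiles or the GC content and length correction. Ndufa4 had a log2 change of 0.015, negative with that correction. Cox5a had the widest interval of the complex, with 769, 588 and 673 normalised counts in the Calr KO libraries, against 554, 686 and 769 in the controls (95% interval of the log2 change -0.27 to 0.31). Its libraries varied as much within each group as between them.

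Several complex IV subunits have tissue-restricted isoforms, and in both groups the common forms had by far the higher counts. Cox6a1 had 2854 ± 21.0 normalised counts in Calr KO cells and 2709.7 ± 161 in controls (log2 change 0.077, 95% interval -0.031 to 0.18, adjusted p = 0.712). Its heart and muscle form Cox6a2 had a mean of 1.65 in Calr KO and 0.323 in control cells. Cox6b1 had 836 ± 21.3 normalised counts in Calr KO cells and 842 ± 12.6 in controls (log2 change -0.011, 95% interval -0.14 to 0.12, adjusted p = 0.974). The testis form Cox6b2 was listed at 0 in the Calr KO libraries and at 1.202, 2.36 and 2.11 in the controls. Cox7a2 had 851 ± 21.1 normalised counts in Calr KO cells and 865 ± 44.97 in controls (log2 change -0.022, 95% interval -0.16 to 0.12, adjusted p = 0.952). The heart and muscle form Cox7a1 had 5.26 ± 1.73 normalised counts in Calr KO cells and 5.42 ± 3.02 in controls. None of these forms below the level of the rule was tested. Cox4i2, Cox7b2, Cox8b and Cox8c were listed at 0 in all 6 libraries. Ndufa4l2, the hypoxia-responsive relative of Ndufa4, had a mean of 1.98 in Calr KO and 2.18 in control cells and was not tested.

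Complex V consists of the F1 head, which makes ATP, a rotating ring of c subunits in the membrane, a peripheral stalk and small membrane subunits. Atp5a1, the alpha subunit of F1, had 10335, 10647 and 10700.2 normalised counts in the Calr KO libraries, against 11445, 11110.2 and 11105 in the controls. All Calr KO libraries were below all controls, at 0.941 of the control level (log2 change -0.087, 95% interval -0.15 to -0.027, adjusted p = 0.375). Atp5a1 lies on chromosome 18 (ENSMUSG00000025428.15, positions 77773729 to 77782869, GRCm38). Its partner in the catalytic hexamer, Atp5b, had 25648, 24563 and 25369 normalised counts in the Calr KO libraries, against 24796, 24394 and 25479.8 in the controls (log2 change 0.017, 95% interval -0.038 to 0.073, adjusted p = 0.882), and the groups overlapped. The gamma subunit Atp5c1, the central shaft, had 4186 ± 2.52 normalised counts in Calr KO cells and 4213 ± 158 in controls (log2 change -0.0087, 95% interval -0.092 to 0.075, adjusted p = 0.969). The 5 F1 genes had a median change of -0.0087.

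The c ring is encoded by 3 genes whose mature proteins are the same and which differ in their import sequences. Atp5g1 had 902 ± 30.2 normalised counts in Calr KO cells and 888 ± 115 in controls (log2 change 0.031, adjusted p = 0.955). Atp5g2 had 1849 ± 20.4 normalised counts in Calr KO cells and 1782 ± 116 in controls (log2 change 0.055, adjusted p = 0.819). Atp5g3 had 2062 ± 20.2 normalised counts in Calr KO cells and 2011 ± 37.6 in controls without overlap between the groups (log2 change 0.036, adjusted p = 0.855). Reads may be split between such similar genes, which makes the value of each uncertain. In the peripheral stalk, Atp5o, which joins it to F1, had 1719.8 ± 44.2 normalised counts in Calr KO cells and 1694 ± 84.2 in controls (log2 change 0.023, 95% interval -0.094 to 0.14, adjusted p = 0.935), and Atp5h, the d subunit, had a log2 change of -0.027. The 2 largest positive changes of the complex were those of the small membrane subunits Atp5k and Atp5mpl. Changes of the 5 membrane subunits ran from -0.027 to 0.18, and 4 were positive. Atp5k, the e subunit, had 207, 205 and 188 normalised counts in the Calr KO libraries, against 166, 177 and 185 in the controls (log2 change 0.18, 95% interval -0.054 to 0.42, adjusted p = 0.677). Atp5mpl, a proteolipid subunit, had 371, 337 and 334 normalised counts in the Calr KO libraries, against 332, 309.7 and 296 in the controls (log2 change 0.15, 95% interval -0.049 to 0.35, adjusted p = 0.688). In both genes all Calr KO libraries were above all controls.

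Overlap with other genes limits some of these values. Exons of 29 members overlap another annotated gene, and in 19 cases that gene had a mean of at least 10, each time on the opposite strand. The sources used here do not say whether the counting used strand, so reads from the overlapping bases of such pairs cannot be told apart. How much of each gene overlaps was not measured. Among them are Ndufb11 with Rbm10, Ndufb2 with Braf, Ndufs3 with Kbtbd4, Atp5a1 with Haus1 and Atp5j with Gabpa. Processed pseudogenes are common for these short transcripts and can share reads with them.

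The mitochondrially encoded partners of these subunits stood further from 0. Of 13 such genes 12 had positive changes (11 with the GC content and length correction), 7 had every Calr KO library above every control (53.8%, against 7.57% of all tested genes), 8 were higher at an unadjusted p under 0.05 (61.5%, against 4.6%), and 0 passed at an adjusted p under 0.05 (limma). The 7 complex I genes among them had a median change of 0.083 with 4 without overlap, and the 3 of complex IV 0.041 with 1. The 1 gene of complex III, mt-Cytb, was at 0.11 without overlap, and the 2 of complex V had a median of 0.16 with 1. The largest changes were those of mt-Nd3, at 0.73 without overlap (95% interval 0.30 to 1.16, adjusted p = 0.290), and mt-Nd4l. The change of mt-Nd4l was 0.53 (95% interval 0.13 to 0.92, adjusted p = 0.439), and its groups overlapped. The genes of smallest p were mt-Atp8, a membrane subunit of ATP synthase, with 1373 ± 31.5 normalised counts in Calr KO cells and 1141 ± 27.1 in controls (log2 change 0.27, 95% interval 0.15 to 0.38, adjusted p = 0.104), and mt-Nd6, a membrane subunit of complex I, with 3959.8 ± 153 normalised counts in Calr KO cells and 3464 ± 63.8 in controls (log2 change 0.19, 95% interval 0.10 to 0.28, adjusted p = 0.157). The share of all normalised counts taken by the 13 genes was 2.82%, 2.85% and 2.91% in the Calr KO libraries, against 2.75%, 2.73% and 2.72% in the controls. Some of the 13 varied widely between wells: mt-Co2 had 1007, 2755 and 1361 normalised counts in the Calr KO libraries, against 1434, 1752 and 1506 in the controls. The other ATP synthase gene, mt-Atp6, whose annotated positions overlap those of mt-Atp8, had a log2 change of 0.047, and its groups overlapped. The 13 genes are not replicates, and the difference between them and the nuclear-encoded subunits was not tested.

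Genes that assemble the complexes did not pass either. The lists of assembly factors also held genes of other function, such as the ATP synthase inhibitor Atpif1, and Lrpprc and Taco1 for complex IV. Of their 55 tested genes, 0 were called by limma in either direction, where 0.28% of all tested genes were. At an unadjusted p under 0.05, 1 was higher and 1 lower (3.64%, against 8.88% of all tested genes). The 17 of complex I had a median log2 change of 0.049, with Nubpl, an iron-sulphur carrier, at 0.29 and Ndufaf8 at 0.35. The 4 of complex II had a median of 0.13, with Sdhaf4 at 0.28 and Sdhaf2, which helps attach the flavin to Sdha, at -0.10. The 6 of complex III had a median of 0.014, with Uqcc1 at -0.20 and Lyrm7 at 0.36; without Calr KO replicate 1 the change of Lyrm7 was -0.012, and without control replicate 3 it was -0.19. The 23 of complex IV had a median of 0.018, with the low gene Coa4 at 0.79 (40.4 ± 16.2 normalised counts in Calr KO cells and 21.7 ± 3.03 in controls) and Cox16 at 0.26. Of the 5 for ATP synthase, Atpaf1, which chaperones the F1 beta subunit, had 193, 183 and 180.4 normalised counts in the Calr KO libraries, against 212, 308 and 233 in the controls (log2 change -0.42, 95% interval -0.74 to -0.10, adjusted p = 0.451). Its controls were all higher than its Calr KO libraries. Fmc1 had a log2 change of 0.11, and the median of the 5, Atpif1 included, was 0.022.

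Of 3 tested supercomplex factors 0 passed, where 0.28% of all tested genes did. At an unadjusted p under 0.05, 1 was higher (33.3%, against 8.88% of all tested genes). That gene, Higd1a, is a hypoxia-inducible partner of complexes III and IV. It had 971 ± 65.99 normalised counts in Calr KO cells and 854 ± 22.7 in controls without overlap (log2 change 0.18, 95% interval 0.036 to 0.33, adjusted p = 0.471). Higd2a had a log2 change of 0.060. Cox7a2l went the other way, at -0.036 (adjusted p = 0.906), and its groups overlapped. Among 20 genes of ubiquinone synthesis, cytochrome c and other electron donors 0 passed, where 0.28% of all tested genes did. Their median log2 change was -0.011. At an unadjusted p under 0.05, 1 was higher and 0 lower (5.0%, against 8.88% of all tested genes). Pdss1, which makes the ubiquinone tail, had a log2 change of 0.26, and Coq10a, which binds ubiquinone, -0.27. Cycs, which encodes cytochrome c, had 2617 ± 126 normalised counts in Calr KO cells and 2609 ± 68.8 in controls (95% interval of the log2 change -0.10 to 0.11). The 14 enzymes of the citric acid cycle had a median of -0.012 and 0 calls, with fumarase (Fh1) at 0.18 and malate dehydrogenase (Mdh2) at 0.055. At an unadjusted p under 0.05, 1 of them was higher and 0 lower (7.14%, against 8.88% of all tested genes).

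Regulators of mitochondrial biogenesis, some of the nuclear genes and some of the mitochondrial genome, did not pass. Of 13 tested regulators 0 were called, where 0.28% of all tested genes were, with a median log2 change of 0.027. At an unadjusted p under 0.05 the count was also 0, against 8.88% of all tested genes, which in so short a list does not set them apart. The regulators of smallest p were Tfb1m, at 0.29, and Mterf1a, at 0.22. Nrf1 had 799.6 ± 89.0 normalised counts in Calr KO cells and 786 ± 77.2 in controls (log2 change 0.024, 95% interval -0.19 to 0.24, adjusted p = 0.967), and Gabpa, the DNA-binding subunit of GABP, 1242 ± 28.5 normalised counts in Calr KO cells and 1279 ± 22.7 in controls (log2 change -0.042, 95% interval -0.15 to 0.069, adjusted p = 0.856). Tfam, which packages and transcribes the mitochondrial genome, had 816 ± 30.8 normalised counts in Calr KO cells and 800.0 ± 28.4 in controls (log2 change 0.028, 95% interval -0.11 to 0.17, adjusted p = 0.934). The coactivator Ppargc1a lay below the level for testing, with 7.84 ± 3.74 in Calr KO and 8.79 ± 3.84 in control cells. Yy1 had 2706 ± 132 normalised counts in Calr KO cells and 2656 ± 135 in controls (log2 change 0.027, 95% interval -0.091 to 0.14, adjusted p = 0.923). The transcript levels of these factors do not measure their activity.

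In 3 further mitochondrial lists 0 genes passed by limma, where 0.28% of all tested genes did. At an unadjusted p under 0.05, 2 ribosomal proteins and 1 protease or chaperone were higher, where 4.6% of all tested genes were. In the other direction 1 ribosomal protein was lower, where 4.28% of all tested genes were. The 78 mitochondrial ribosomal proteins had a median change of 0.022, with Mrps35 at 0.36 (adjusted p = 0.327) and Mrpl17 at 0.25 (adjusted p = 0.364) as the genes of smallest p. The 20 genes of protein import had a median of 0.024, with the presequence peptidase subunit Pmpca at 0.14 and Tomm7 of the outer membrane translocase at 0.15. The 14 mitochondrial chaperones and proteases had a median of -0.0011, with the prohibitin Phb2 at 0.15 and the protease Htra2 at -0.080.

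**Figure D5:**
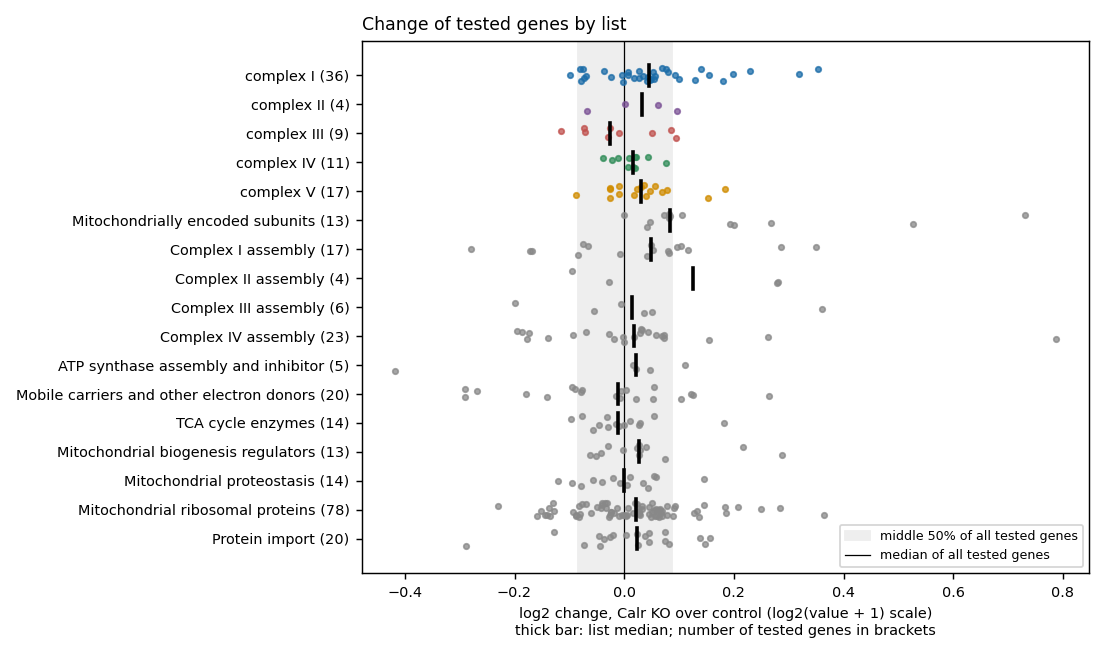
Log2 change in Calr KO over control cells of each tested gene (points) by complex and by list, with the list median as a thick bar; the grey band holds the middle 50% of all 13199 tested genes. The medians of complexes I to V lie between -0.025 and 0.045, inside the band, and the mitochondrially encoded subunits have a median of 0.083.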

How the data were processed

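RNA sequencing of 6 LLC libraries gave 1 table of gene-level values. Each deposited value is a signal, a gene count that the authors had normalised with DESeq2, per the labels. STAR 2.6.1d, Salmon 0.14.1, DESeq2 1.34.0 and mm10 are named in the submitters' processing notes, with no role given. Taking the commonest value near 1 as the worth of a read put the depth at about 13565886 to 14920619 reads. Among values below 1.5 reads 80.3% to 83.7% were whole within 0.02, but at 100 to 1000 reads at most 6.02% were, so the values were not treated as reads and no count test was applied.

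The test was limma 3.58.1 (R 4.3.3) on log2(value + 1) for genes averaging 10 or more, with a variance trend on level. It was two-sided and Benjamini-Hochberg adjusted across these genes, with a threshold of 0.05. Every adjusted p comes from it, intervals and SE are its moderated ones, and log2 changes of low genes are understated by the added 1. The code was run on simulated data with normal noise set by level alone. Such data follow the test's own assumption, so that run cannot vouch for calls in the real data. Means carry ± SD (n = 3 in each group). Positions, lengths (longest principal transcript) and exon overlaps come from GENCODE M21 (GRCm38), in which 53292 of 55291 symbols were found directly and 406 by a RefSeq synonym, and promoters from RefSeq (GRCm38.p6).

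Members and lists were chosen with earlier results of these data known. Named by rule were textbook subunits and tissue isoforms, the 2 highest and 2 lowest changes and the highest level in each complex, and the 2 genes of smallest p in each other list. Other members without overlap and Nrf1, Gabpa, Tfam, Cycs, Ppargc1a and Ndufa4l2 were added after values were seen. Yy1, Cox7a2l, mt-Co2, mt-Atp6, mt-Nd3, mt-Nd4l and mt-Cytb were also added then and are not among the named genes followed through the alternative settings. The values of 1 member, counted in every total, are not reported here. Alternatives were other pseudocounts, level filters, scalings and variance priors, the replicate number as a block, a GC content and length correction, Ndufa4 counted in complex I and each library left out.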

Additional observations from a re-analysis of the deposited data

How the results depend on the processing

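With 3 wells per group from 1 population each, differences below the intervals given could not be seen, and 75 named genes were followed through 18 alternative settings. Members called higher and lower numbered 0 and 0 in each setting, and the lowest adjusted p of a member was between 0.255 and 0.508, with 3 to 5 members at an unadjusted p under 0.05. Over all genes, 37 calls became 2 with a single variance prior, and 20 to 34 when 1 library was left out, the fewest without Calr KO replicate 1 (20), then Calr KO replicate 3 (21) and control replicates 2 and 3 (22 each). With the replicate number as a block there were 26 calls and 0 members; the numbers did not pair the wells (correlations of deviations -0.0556 to 0.00145). With 1 library left out, the medians ran from 0.014 to 0.045 over all members, 0.021 to 0.058 in complex I, 0.0062 to 0.050 in complex II, -0.054 to -0.0023 in complex III, 0.0031 to 0.036 in complex V and -0.0060 to 0.033 in complex IV, where it turned negative when Calr KO replicate 3 or control replicate 2 was dropped. Without Ndufab1, a choice made after seeing the data, the medians were 0.043 in complex I and 0.025 over all members. Ndufa4 counted in complex I left medians of 0.043 and 0.014 in complexes I and IV. The exclusion of Atp5s and Atp5sl gave no value, as neither is a member. The sign was the other one in 45 of 1349 values, none with an adjusted p under 0.853, and the cause was not tested; the largest of these values was -0.19, for Lyrm7 without control replicate 3, and Ndufab1 turned to -0.060 without control replicate 1. Sdhc was at -0.0014 with equal totals, -0.0098 with equal upper quartiles, -0.0037 with equal medians and -0.0027 with the GC content and length correction, and Cycs at -0.0069, -0.00077 and -0.0060 under the last 3 of these. Cox4i1 and Cox7c were at -0.0043 and -0.0014 with equal upper quartiles; Cox5a, Cox7c and Ndufa4 were at -0.0031, -0.011 and -0.0052 with the correction. With 1 library left out, the log2 change ranged from -0.039 to 0.014 for Atp5c1, -0.076 to 0.11 for Atp5g1, -0.014 to 0.057 for Atp5o, -0.028 to 0.032 for Cox4i1, -0.11 to 0.13 for Cox5a, -0.032 to 0.0036 for Cox6b1, -0.079 to 0.0059 for Cox6c, -0.047 to 0.020 for Cox7a2, -0.018 to 0.037 for Cox7c, -0.0085 to 0.047 for Cox8a, -0.00043 to 0.10 for Cyc1, -0.033 to 0.035 for Cycs, -0.00089 to 0.19 for Fmc1, -0.19 to 0.71 for Lyrm7, -0.026 to 0.053 for Ndufa4, -0.060 to 0.59 for Ndufab1, -0.011 to 0.046 for Ndufs1, -0.062 to 0.10 for Nrf1, -0.014 to 0.030 for Sdhc, -0.0035 to 0.044 for Tfam and -0.054 to 0.0050 for Uqcrc2.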
